A study of Mus musculus with 3 samples.

Results

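MicroRNAs of mature mouse sperm were compared with those of the adult testis, arm by arm, over every annotated hairpin. A microRNA hairpin is cut into a 5p and a 3p arm, and the members here are the arms counted from reads of 20 to 24 nt that match a GENCODE mouse hairpin in full and in the sense direction. Of 618 arms with a read in either library, 125 arms with 100 or more reads in sperm or testis were kept, and they come from 136 of the 1174 hairpins searched. Reads were scaled to all hairpin-arm reads of the library, so each level is a share of the microRNA reads and not an amount per cell.

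The study sequenced small RNA from outbred CD1 mice. Mature sperm came from the cauda epididymis, the site of sperm storage, and were treated on ice with a detergent buffer meant to lyse somatic cells. The other libraries came from whole adult testis, which holds germ cells of all stages with Sertoli, Leydig and other somatic cells, and from adult uterus, used here only as a reference tissue. Apart from the lysis step described for sperm, no treatment, genotype or age in weeks separates the groups. The labels do not say how many animals were pooled. There was 1 library per group, so differences between sperm and testis have no replicate check, no test was made, and the 95% intervals given cover counting error only. Amplified reads are not independent molecules. In such bulk libraries fewer cells of a type and less RNA per cell cannot be told apart.

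A microRNA hairpin is cleaved by Drosha and Dicer, and 1 strand of the resulting duplex is usually retained by an Argonaute protein while the other is degraded. The retained strand recognises target messenger RNAs mainly through its seed, the bases from position 2 to 8, so arms that share a seed can share targets. Male germ cells are known for members of the miR-34 and miR-449 family and for a rapidly evolving group of microRNAs on the X chromosome, whereas the miR-200 family is a hallmark of epithelia, such as the one that lines the epididymis.

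Hairpin-arm reads were a small part of both libraries. They made up 394287 of 15690722 sperm reads, or 2.51% (2.505 to 2.521%), and 187269 of 23783785 testis reads, or 0.787% (0.784 to 0.791%), against 65.3% of the uterus library. The 3 reads that a count of 0 allows correspond to 7.61 reads per 1000000 hairpin-arm reads (the scale of the levels given later) in sperm and 16.02 in testis. The 125 arms held 98.9% of the hairpin-arm reads of sperm and 98.3% of those of testis. Of these arms, 61 had 100 or more reads in both libraries, 51 only in sperm and 13 only in testis, so the deeper microRNA coverage of sperm weighs on which arms were kept. The germ cell list held 8.37% of hairpin-arm reads in the sperm library, 47.7% in that of testis and 0.0538% in that of uterus. Of its 32996 sperm reads, 16774 were of miR-34c-5p and 14839 of miR-184-3p. The gonadal miR-202-5p had 2 reads in sperm and 2606 in testis. The presence of the list in sperm thus rests mainly on miR-34c-5p and miR-184-3p. Reads that resemble microRNAs of insects were met in the sperm library in an informal search and were not counted here. The mature sequences of miR-1, miR-184, let-7 and miR-10 family members are largely conserved among animals, and whether RNA of another organism adds to their sperm reads was not tested. An epithelial list, by contrast, held 10.1% in sperm, 0.0449% in testis and 0.0686% in uterus.

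The sequences below are some of the arms that led each library, those with the largest ratios, and both arms of hairpins that switched arms. They were taken from RefSeq with its GRCm38.p6 mouse table, in which 107 of the 125 arms matched a mature entry. They are written 5′ to 3′ with the seed in capitals. miR-34c-5p, the leading arm of testis, shares the miR-34 and miR-449 seed but had no mature entry and is not printed. Arms of the miR-34 and miR-449 seed, all at least 4-fold higher in testis, were
miR-34b-5p: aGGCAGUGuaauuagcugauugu
miR-34a-5p: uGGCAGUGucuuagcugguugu
miR-449a-5p: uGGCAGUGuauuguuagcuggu
Other arms with large ratios toward testis were
miR-202-5p: uUCCUAUGcauauacuucuuu
miR-503-5p: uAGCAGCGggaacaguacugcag
miR-471-3p: uGAAAGGUgccauacuauguau
The miR-200 arms that share a seed, each past 4-fold toward sperm, were
miR-200c-3p: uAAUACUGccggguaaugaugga
miR-200b-3p: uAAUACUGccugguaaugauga
miR-429-3p: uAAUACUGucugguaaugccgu
Of the miR-183 cluster, whose members carry similar but not identical seeds, the leading pair was
miR-182-5p: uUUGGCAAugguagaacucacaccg
miR-183-5p: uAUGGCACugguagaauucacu
The arms encoded in the Hox clusters, all higher in sperm, fall into 2 seed pairs
miR-10a-5p: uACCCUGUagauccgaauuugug
miR-10b-5p: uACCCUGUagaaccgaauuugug
miR-196a-5p: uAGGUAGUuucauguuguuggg
miR-196b-5p: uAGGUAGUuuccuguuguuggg
The let-7 arms share 1 seed and differ in the bases that follow it, let-7c, let-7f and let-7a were among the leading arms of both libraries, let-7i-5p was the member past 4-fold, and miR-21a-5p was among the leading arms of sperm
let-7c-5p: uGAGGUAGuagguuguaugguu
let-7f-5p: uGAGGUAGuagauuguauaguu
let-7a-5p: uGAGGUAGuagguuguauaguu
let-7i-5p: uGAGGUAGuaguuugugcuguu
miR-21a-5p: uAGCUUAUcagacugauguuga
The remaining arms belong to hairpins whose leading arm differed between the libraries
miR-34b-3p: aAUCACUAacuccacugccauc
miR-878-5p: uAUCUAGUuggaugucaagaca
miR-878-3p: gCAUGACAccacacuggguaga

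More arms were higher in sperm than in testis. Of the 125 arms, 46 (36.8%) were at least 4-fold higher in sperm, 23 (18.4%) were at least 4-fold higher in testis and 56 lay under 4-fold. The sperm-higher arms held 55.7% of the hairpin-arm reads of sperm and 2.30% of those of testis, while the testis-higher arms held 54.5% in testis and 5.25% in sperm. The median log2 ratio of sperm over testis was 0.54, with quartiles of −1.41 and 3.49 and a range from −11.42 to 12.42. Which library an arm passed the minimum in bears on these counts. Of the 61 arms with 100 or more reads in both libraries, 9 were higher in sperm and 10 in testis, whereas 37 of the 51 arms that passed in sperm alone (72.5%) were higher in sperm and all 13 that passed in testis alone were higher in testis. The balance also depends on the denominator. With all reads of the library as the denominator, every log2 ratio shifts by 1.67 and the split becomes 64 against 12. In testis 1 arm, miR-34c-5p, took 44.7% of the hairpin-arm reads. With the most abundant arm of either library left out of the denominator, every ratio shifts by −0.83 and the split becomes 39 against 35. Under the 5 scalings tried, 39 of the 46 and 12 of the 23 arms passed 4-fold each time, and none crossed to the other direction.

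**Figure D1:**
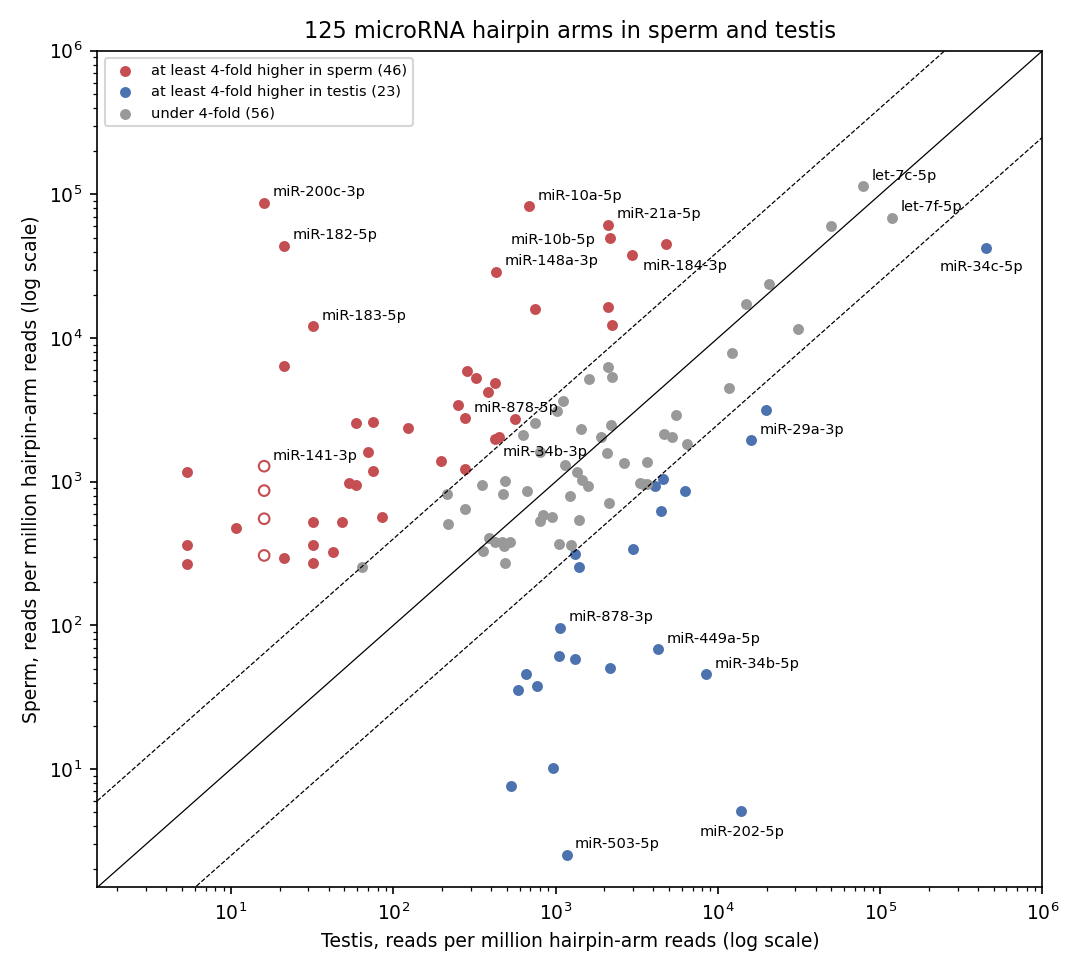
Level of each arm, as reads per 1000000 hairpin-arm reads, in testis (x, log scale) and sperm (y, log scale) for the 125 kept arms, 1 library each. The solid line marks equal shares and the dashed lines 4-fold; red points (46) are higher in sperm, blue points (23) higher in testis, and open circles, the 4 arms with 0 testis reads, are placed at the 3 reads that a count of 0 allows. miR-200c-3p and miR-202-5p lie farthest from the line of equal shares.

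The 2 libraries differed in how evenly their microRNA reads were spread. In sperm the 10 leading arms held 65.7% of the reads and 7 arms were needed to reach 50%, whereas in testis the 10 leading arms held 81.0% and 2 arms sufficed. In sperm let-7c-5p led with 45262 reads (11.5%), followed by miR-200c-3p with 34575 (8.77%), miR-10a-5p with 32715 (8.30%), let-7f-5p with 27136 (6.88%) and miR-21a-5p with 24288 (6.16%). In testis miR-34c-5p had 83730 reads, let-7f-5p 22128 (11.8%), let-7c-5p 14763 (7.88%) and let-7a-5p 9368 (5.0%), and let-7g-5p followed with 5817 (3.11%). In sperm the leading arms thus combine let-7 members, present at like shares in testis, with arms such as miR-200c-3p and miR-10a-5p that were scarce in testis.

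Arms of the epithelial list lay far toward sperm. Of its 8 kept arms, 7 passed 4-fold toward sperm, none was higher in testis, and the list median was 5.28 beside 0.54 for all arms. All 8 passed the minimum in sperm alone, a group in which 72.5% of arms were called toward sperm, so the count is a description only. miR-200c-3p, a repressor of the Zeb transcription factors, had 34575 reads in sperm and 3 in testis, or 87690 and 16.02 reads per 1000000. Its log2 ratio was 12.42 (10.87 to 14.70), the highest of the 125 arms. Its hairpin Mir200c lies at chr6:124718322-124718390 on the minus strand of GRCm38, in an intron of the antisense gene Gm15884, next to Mir141. miR-141-3p had 506 reads in sperm and 0 in testis and was at least 80.1-fold higher in sperm. The second miR-200 locus, on chromosome 4, gave, in sperm and testis, miR-200b-3p with 2539 and 4 reads (8.24, 6.88 to 10.11), miR-200a-3p with 1008 and 11 (5.44, 4.60 to 6.45) and miR-429-3p with 465 and 14 (3.98). miR-200b-5p, the other arm of Mir200b, had 218 and 0 reads and was at least 34.5-fold higher, and miR-205-5p, a microRNA of stratified epithelia, had 121 and 0 and was at least 19.2-fold higher. Only miR-203-3p, the skin microRNA of the list, lay under 4-fold, with 254 and 52 reads (1.21). The 4 unkept arms of these hairpins had 1 to 39 reads in sperm and 0 in testis.

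The miR-183 cluster, known from sensory organs and epithelia, followed the same direction. miR-182-5p had 17319 reads in sperm and 4 in testis (log2 ratio 11.01, 9.65 to 12.88), miR-183-5p 4800 and 6 (8.57, 7.45 to 10.02) and miR-96-5p 117 and 4 (3.80, 2.40 to 5.70). All 3 kept arms of the list thus passed 4-fold toward sperm, as did 36.8% of all arms, and each had passed the minimum in sperm alone. Within sperm the cluster's arms were uneven, since miR-182-5p took 4.39% of the reads, miR-183-5p 1.22% and miR-96-5p 0.0297%. In uterus the same 3 arms had 44, 35 and 40 reads among 10372607 hairpin-arm reads.

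MicroRNAs encoded in the Hox clusters, which repress Hox messages, were also higher in sperm in 4 of 4 kept arms, beside 36.8% of all arms, with a list median of 6.34. The miR-196 pair passed the minimum in sperm alone. miR-10a-5p had 32715 sperm and 129 testis reads (6.91, 6.66 to 7.17), though whether another organism adds to its sperm reads was not tested, and miR-10b-5p, read from an intron of Hoxd3 and Hoxd4, 19591 and 407 (4.51, 4.37 to 4.66). The seed that both share, ACCCUGU, held 13.3% of sperm and 0.286% of testis hairpin-arm reads. miR-196b-5p, whose hairpin overlaps an exon of Hoxa9, had 463 reads and 1 read (7.78, 5.30 to 13.09), and miR-196a-5p had 342 and 0 and was at least 54.1-fold higher. The part of epithelial cells of the preparation in these ratios was not tested.

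Kept arms of the miR-30 family, a broadly expressed group, all lay toward sperm. All 7 kept arms passed 4-fold toward sperm, beside 36.8% of all arms, 5 of them after passing the minimum in sperm alone, with log2 ratios between 2.49 for miR-30d-5p (4900 sperm and 415 testis reads) and 4.54 for miR-30e-3p (636 and 13 reads). miR-30d-5p lay under 4-fold, at 1.66, without the leading arms in the denominator. Below the minimum, miR-30c-2-3p had 72 and 24 reads (0.51) and miR-30b-3p 18 and 1 (3.10). The family includes both 5p arms with the seed GUAAACA (4.12% of sperm and 0.512% of testis reads) and 3p arms with another seed. The 4 kept arms of the miR-23, miR-27 and miR-24 list were higher in sperm as well (2.14 to 3.52), but the calls of 2 of them depend on the scaling. miR-24-3p, at 2.28 with 1071 and 105 reads, lay at 1.96 with TMM factors and 1.45 without the leading arms in the denominator. miR-23b-3p, at 2.14, lay at 1.82 with TMM factors, 1.88 with DESeq2 size factors and 1.31 without the leading arms. miR-148a-3p had 11453 and 81 reads (6.07, 5.75 to 6.4) and miR-21a-5p, an abundant microRNA of many somatic tissues read from an exon of Vmp1, had 24288 and 394 (4.87, 4.73 to 5.02). The shared arm of miR-378a and miR-378c had 6297 and 140 (4.42).

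Markers of blood, vessel and smooth muscle cells were read beside these families. All 3 kept leukocyte arms passed 4-fold toward sperm, beside 36.8% of all arms, and each had passed the minimum in sperm alone. miR-146a-5p, a feedback inhibitor of inflammatory signalling, had 1026 sperm and 14 testis reads (5.12), miR-142a-5p 224 and 16 (2.73) and miR-142a-3p 127 and 8 (2.91). Without the leading arms in the denominator miR-142a-5p lay at 1.90, under 4-fold. The whole leukocyte list, 5 of 5 hairpins with reads, held 0.383% of sperm and 0.0246% of testis hairpin-arm reads. Of its defining arms below the minimum, miR-150-5p had 92 and 4 reads, miR-155-5p 18 and 1, and miR-223-3p 16 and 2, so none was at 0. The endothelial marker miR-126a-3p had 142 reads and 1 read (6.08, 3.57 to 11.39), and its list, 1 of 2 hairpins with reads, held 0.0421% and 0.00320%. A further 12 sperm and 5 testis reads shared the first 19 bases of miR-126a-3p but ended differently. With such reads counted, a setting added once the data had been seen, the list median was 3.56. The other arm, miR-126a-5p, was below the minimum with 24 and 5 reads (1.19). The erythroid list had no kept arm, with 69 and 31 reads (0.0175% and 0.0166%). Its arms differed in direction, with miR-144-5p at 54 and 0 reads and miR-451a-5p at 15 and 30 (−2.07). Of the smooth muscle and stroma list miR-143-3p, with 17706 and 894 reads, was higher in sperm (3.23, 3.14 to 3.33), while miR-145a-5p from the same locus had 514 and 213 (0.20) and the shared arm of miR-199a and miR-199b, a stromal microRNA, 380 and 682 (−1.92). That list, 6 of 6 hairpins with reads, held 4.73% and 0.960%. The part of such cells in the ratios of the other families was not tested.

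**Figure D2:**
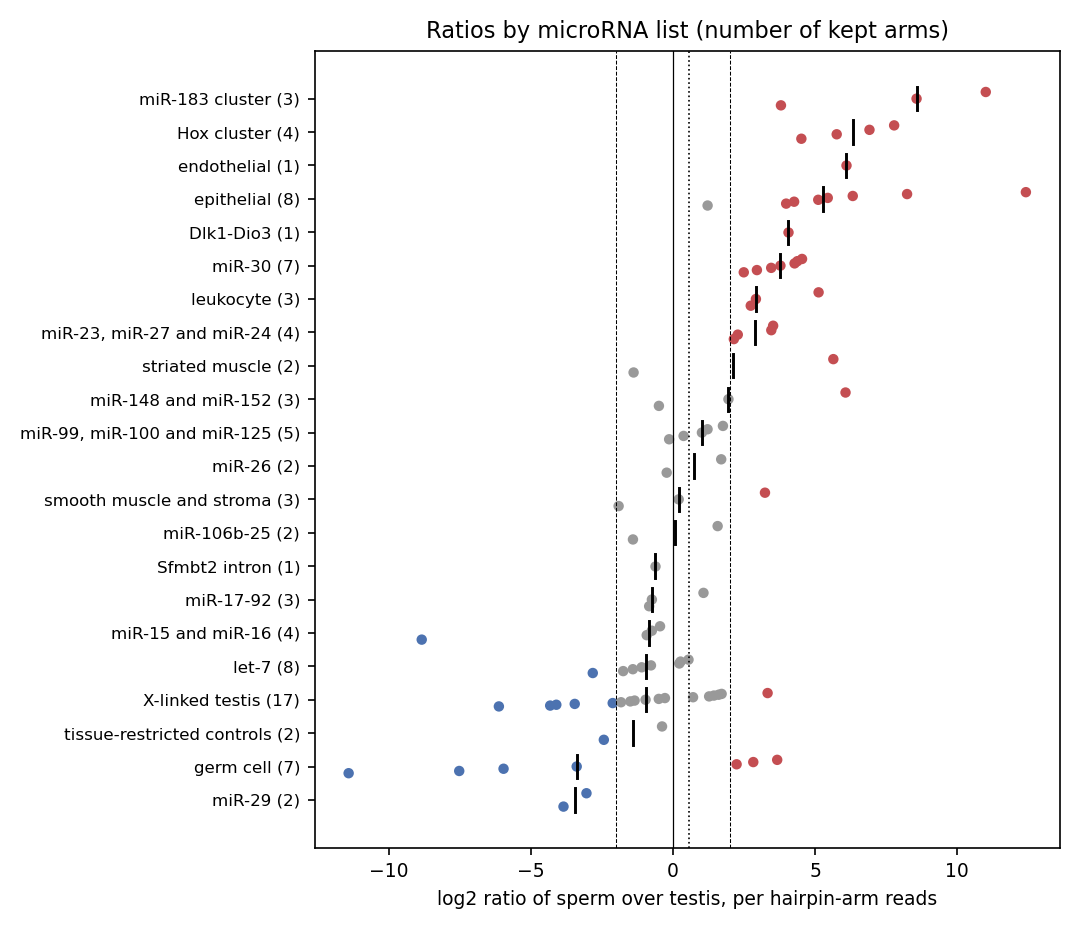
log2 ratio of sperm over testis for each kept arm of 22 microRNA lists, 1 point per arm, with the number of kept arms beside the list name. The black bar is the list median, the dotted line the median of all 125 arms, the dashed lines 4-fold, and red and blue points passed 4-fold toward sperm and testis. The miR-183, Hox, epithelial, miR-30 and leukocyte arms lie to the right, the miR-29 arms to the left, and the germ cell arms on both sides.

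Kept arms of the germ cell list were called toward both libraries. Of 7 kept arms of the germ cell list, 4 were at least 4-fold higher in testis and 3 in sperm, with none between. miR-202-5p, a microRNA of the gonads, had 2606 reads in testis and 2 in sperm (−11.42, −14.47 to −9.57), the lowest ratio of all arms, and 0 reads in uterus. miR-34b-5p had 1579 reads in testis and 18 in sperm (−7.53, −8.29 to −6.86), and miR-449a-5p, read from an intron of Cdc20b, had 803 and 27 (−5.97, −6.58 to −5.42). miR-34a-5p, the p53-responsive relative outside the list, had 181 and 4 (−6.57). miR-34c-5p, the most abundant arm of testis, had 83730 reads there and 16774 in sperm, or 447111 and 42543 reads per 1000000 (−3.39, −3.42 to −3.37). In this seed family miR-34c-5p thus had the largest share in sperm, 4.25% of all hairpin-arm reads, whereas miR-34a-5p, miR-34b-5p and miR-449a-5p each had under 30 reads there. With all reads of the library as the denominator the log2 ratio of miR-34c-5p was −1.72, under 4-fold. The 3 arms of the list higher in sperm were miR-184-3p with 14839 and 556 reads (3.66, 3.54 to 3.79) and the 3p arms of Mir34b and Mir34c. For miR-184-3p, whether another organism adds to its sperm reads was not tested. miR-34b-3p, at 2.23, lay at 1.92 with TMM factors, 1.97 with DESeq2 size factors and 1.41 without the leading arms, where miR-34c-3p lay at 1.99.

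Other arms higher in testis came from several families. miR-503-5p, a member of the miR-16 family that restrains the cell cycle, had 219 reads in testis and 1 in sperm (−8.85, −14.16 to −6.36), while miR-16-5p, miR-15b-5p and miR-195a-5p, the other kept arms of the list, lay between −0.93 and −0.46. Below the minimum, miR-322-3p had 86 testis reads and 1 sperm read (−7.50). miR-497a-5p (−2.24), miR-322-5p (−2.07) and miR-15a-5p (−1.95) also lay toward testis, and the remaining unkept arms of the list had too few reads for a ratio. Both kept arms of the miR-29 list, whose members repress collagen messages, were at least 4-fold higher in testis, beside 18.4% of all arms, miR-29a-3p with 3005 testis and 764 sperm reads (−3.05) and miR-29c-3p with 124 and 18 (−3.86). The shared arm of miR-103 and miR-107, which are encoded in introns of the pantothenate kinase genes Pank3, Pank2 and Pank1, had 3694 testis and 1244 sperm reads (−2.64, −2.74 to −2.55). miR-423-5p had 1167 and 339 (−2.86) and miR-185-5p 110 and 14 (−4.05). When scaled to all reads of each library, miR-29a-3p (−1.38), the arm of miR-103 and miR-107 (−0.97) and miR-423-5p (−1.18) lay under 4-fold. miR-3470b-5p (406 testis and 20 sperm reads) and miR-3470a-5p (247 and 23) also passed 4-fold toward testis, but all of their reads match other annotated RNA genes in full, as did all reads of miR-1839-5p and miR-664-5p, so the hairpin is not their only possible source.

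The let-7 family was the largest seed family of sperm and, after that of miR-34 and miR-449, of testis. Its seed held 28.3% of hairpin-arm reads in sperm and 31.1% in testis. Of 8 kept arms, 1 was at least 4-fold higher in testis and 7 lay under 4-fold. let-7i-5p, with 833 testis and 247 sperm reads (−2.83, −3.04 to −2.62), was the one past 4-fold, though it was at −1.15 with all reads as the denominator. let-7c-5p (0.54), let-7a-5p (0.26) and let-7b-5p (0.22) lay above 0 with this scaling, and let-7f-5p (−0.78), let-7d-5p (−1.11), let-7g-5p (−1.42) and let-7e-5p (−1.76) below it. The list median was −0.94, and 0.73 when scaled to all reads of each library.

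Several further lists lay near the middle of all arms. No kept arm of the miR-17-92 list, microRNAs of proliferating cells, passed 4-fold (3 arms, −0.84 to 1.07), and neither did the 5 arms of the family of miR-99, miR-100 and the miR-125 group (−0.14 to 1.75), the 2 of miR-106b-25 (miR-25-3p at −1.41 and miR-93-5p at 1.57) or the 2 of miR-26 (−0.23 and 1.69). The miR-17-92 median was −0.75, and 0.93 when scaled to all reads of each library. The imprinted Dlk1-Dio3 region gave reads from 39 hairpins but 1 kept arm, miR-379-5p with 208 sperm and 6 testis reads (4.04), and the intron of Sfmbt2 gave 31 hairpins with reads and 1 kept arm, miR-669c-5p (−0.63). The embryonic stem cell cluster miR-290-295 had 18 reads in sperm and 9 in testis and no kept arm. Among the tissue-restricted controls, miR-375-3p had 622 sperm and 387 testis reads (−0.39) and miR-128-3p 101 and 260 (−2.44). Of the controls below the minimum, miR-124a-3p had 2 and 75 (−6.30), miR-9-5p 83 and 18 (1.13) and the liver microRNA miR-122-5p 3 and 0.

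Of the striated muscle list, miR-206-3p had 105 sperm reads and 1 testis read (5.64, 3.13 to 10.96) and miR-1a-3p had 1765 in sperm and 2199 in testis (−1.39, −1.48 to −1.30). The value of miR-1a-3p rests on the full-match rule. In sperm a further 5125 reads shared its first 19 bases but left the hairpin sequence at the end, 74.4% of all reads with that start, against 111 reads (4.81%) in testis. The leading altered form alone had 2689 reads in sperm and 0 in both testis and uterus. With such reads counted, a setting added once the data had been seen, the log2 ratio was 0.46. The source of the altered reads was not tested, and a full-match read of an arm that is identical in other animals cannot be assigned to mouse by its sequence. Over the 61 arms with 100 or more reads in both libraries, the share of altered reads was higher in sperm by more than 10 points in 8 and lower by more in 9, with medians of 11.99% and 11.84%. After miR-1a-3p the largest differences were those of miR-26a-5p (12.3% in sperm, 49.2% in testis), miR-140-3p (8.39% and 37.2%) and miR-99b-5p (7.13% and 34.8%). With altered reads counted, miR-26a-5p moved from 1.69 to 0.86.

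MicroRNAs of the X chromosome were called in both directions. Of 17 kept arms of the X-linked testis list, 1 passed 4-fold toward sperm, 5 passed it toward testis and 11 lay under it, beside 36.8% and 18.4% of all arms. The median was −0.97, and 0.70 when scaled to all reads of each library. All 17 had 0 reads in uterus, where 3 reads in 10372607 correspond to 0.289 reads per 1000000. The list held 2.63% of hairpin-arm reads in sperm and 3.32% in testis. Toward testis lay miR-471-3p (100 testis and 3 sperm reads, −6.13, −8.43 to −4.54), miR-471-5p (143 and 15, −4.33), miR-883a-3p (197 and 24, −4.11), miR-878-3p (199 and 38, −3.46) and miR-743b-3p (763 and 368, −2.13), and scaled to all reads of each library miR-878-3p (−1.79) and miR-743b-3p (−0.45) lay under 4-fold. Toward sperm lay miR-878-5p with 1098 sperm and 52 testis reads (3.33, 2.92 to 3.76), followed under 4-fold by miR-465a-5p (1431 and 208, 1.71) and miR-741-3p (1229 and 192, 1.60). Close relatives diverged, since miR-743a-3p and miR-743b-3p share a seed and stood at 0.70 and −2.13, and miR-465a-5p and miR-465c-5p at 1.71 and −0.97.

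Arm choice, the share of a hairpin's reads that comes from its 3p arm, was nearly the same in the 2 libraries for most hairpins. It does not depend on the scaling. Compared were 60 hairpins, or groups of hairpins linked through a shared arm, with 100 or more reads in each library. A group can hold different microRNAs, such as the 4 hairpins of let-7a and let-7c. The 3p share differed by at most 1 percentage point in 38 of the 60, and the median absolute difference was 0.315 points. The 95% Clopper-Pearson intervals did not overlap in 17, and the difference exceeded 10 points in 5. The share of the minor arm was higher in sperm in 33 and lower in 11. Some of the 33, such as Mir21a, Mir30d and Mirlet7b, rest on 1 minor-arm read in sperm and 0 in testis, with overlapping intervals. The sperm library also held more hairpin-arm reads (394287 against 187269), so these counts are a description only.

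The majority arm differed in 2 hairpins. Mir34b, at chr9:51103562-51103645 on the minus strand in an intergenic region, was read almost wholly from its 5p arm in testis, with 1579 5p and 79 3p reads, and from its 3p arm in sperm, with 18 and 783. The 3p share was 97.8% (96.5 to 98.7%) in sperm, 4.76% (3.79 to 5.90%) in testis and 9.02% (4.59 to 15.6%) in uterus. Mir878, at chrX:66801508-66801585 on the minus strand, switched the other way, with 1098 5p and 38 3p reads in sperm and 52 and 199 in testis, a 3p share of 3.35% (2.38 to 4.56%) against 79.3% (73.7 to 84.1%). The printed arms of both hairpins have different seeds, so the seed most often read from each hairpin differed between the libraries.

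The neighbour Mir34c kept its 5p arm as the major arm in both libraries, but its 3p share was 3.18% (2.92 to 3.45%) in sperm and 0.0442% (0.0311 to 0.0609%) in testis, with 551 and 37 3p reads. Both hairpins of the pair therefore had a 5p arm higher in testis and a 3p arm higher in sperm, miR-34b-3p at 2.23 (1.90 to 2.59) and miR-34c-3p at 2.82 (2.34 to 3.34). These 3p arms share the seed AUCACUA. Other differences over 10 points were those of Mir741 (98.2% 3p in sperm, 72.2% in testis), Mir423 (16.1% and 1.52%) and the group of 5 Mir465 hairpins (47.6% and 35.2%). The Mir465 shares rest on the full-match rule. Altered reads, not counted in them, were 71.8% of miR-465b-5p reads in sperm and 40% in testis. They were 60.3% and 43.4% for miR-465c-5p, 3.64% and 3.70% for miR-465a-5p, and 16.6% and 28.1% for the shared 3p arm. The Mir465 arm shares with altered reads counted were not computed. Mir340 (8.14% and 0%), Mir30a (17.4% and 10.6%) and Mir25 (100% and 93.5%) followed.

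**Figure D3:**
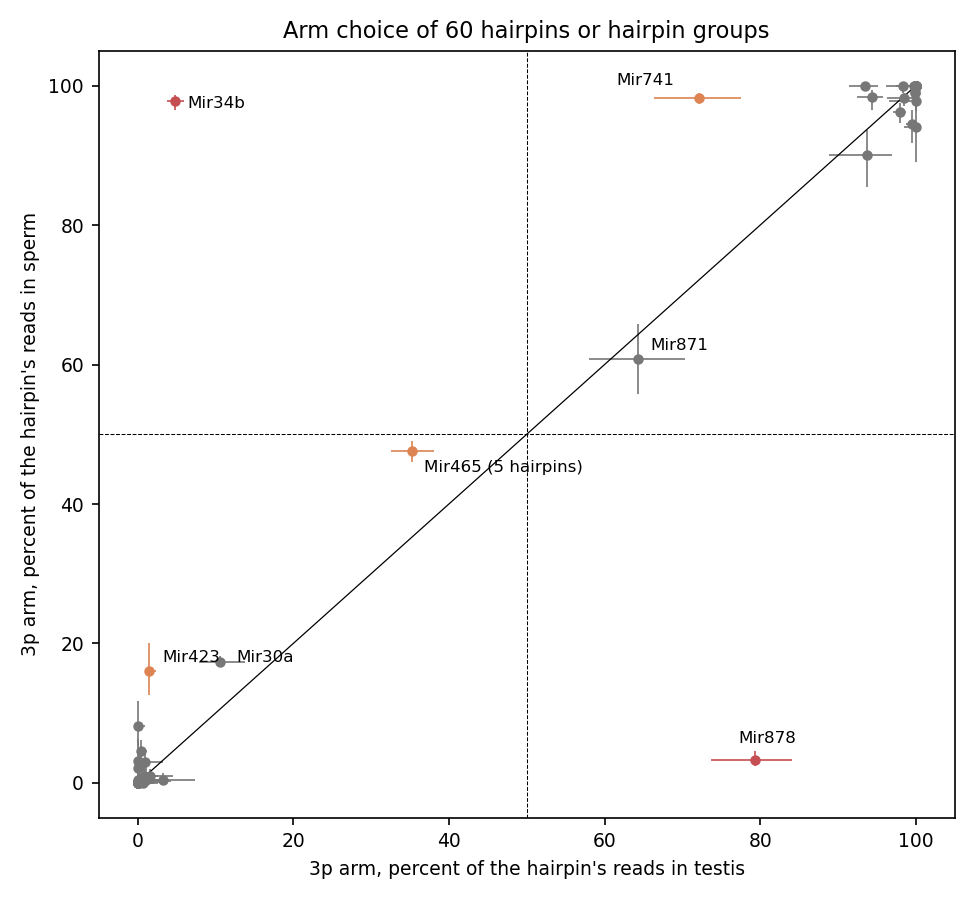
Share of a hairpin's reads from its 3p arm in testis (x, percent) and sperm (y, percent) for 60 hairpins, or groups of hairpins linked through a shared arm, with 100 or more reads in each library. Bars are 95% Clopper-Pearson intervals, dashed lines mark 50%, red points changed the majority arm (Mir34b and Mir878) and orange points differ by over 10 points without doing so; most points lie at the corners on the line of equal shares.

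Of 10 hairpins with both arms kept, 7 had both arms called alike and 3 (Mir34b, Mir34c and Mir878) had arms called in opposite directions. Each of these 3 has an arm that loses its call under another scaling, namely miR-34b-3p, both arms of Mir34c and miR-878-3p, whereas the 3p shares do not depend on it. The 5 with both arms higher in sperm were Mir142, Mir151, Mir200b, Mir30a and Mir30e, and Mir151 had nearly equal log2 ratios for its 5p and 3p arms (4.02 and 4.20). Mir471 had both arms higher in testis.

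Few groups of neighbouring hairpins had calls in both directions, though the ratios within a group could differ in size. With hairpins grouped when no more than 10 kb apart on 1 strand, 20 clusters had at least 2 hairpins with a kept arm. Calls pointed in 1 direction in 9 clusters, in both directions in 2 (Mir34b with Mir34c, and the X-linked group) and were absent in 9. The log2 ratios spanned more than 2 in 9 clusters, among them the miR-183 locus, where all arms were called toward sperm. For comparison, the quartiles of all kept arms were −1.41 and 3.49. Some arms are shared by hairpins at several loci (miR-24-3p, let-7a-5p and let-7c-5p among them), so their value enters more than 1 cluster.

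Of the 7 clusters with 3 or more such hairpins, the miR-200b, miR-200a and miR-429 locus at chr4:156053905-156055750 (3.98 to 8.24), the miR-183 locus at chr6:30165918-30169737 (3.80 to 11.01) and the miR-23b, miR-27b and miR-24 locus at chr13:63300484-63301275 (2.14 to 3.46) had all arms past 4-fold toward sperm, although miR-23b-3p and miR-24-3p lost the call under other scalings. The let-7a, let-7f and let-7d locus at chr13:48536012-48538272 (−1.11 to 0.26), the miR-17-92 locus at chr14:115043671-115044506 (−0.84 to 1.07) and the miR-99b, let-7e and miR-125a locus at chr17:17830188-17830879 (−1.76 to 1.21) had no arm past 4-fold. The X-linked cluster at chrX:66776757-66839125 had 15 of 19 hairpins with a kept arm, and its 17 arms ran from −6.13 for miR-471-3p to 3.33 for miR-878-5p. Among the smaller clusters, Mir425 and Mir191 lie in exons of the same long noncoding RNA, 4833445I07Rik, at chr9:108568319-108568861. Of this pair, miR-425-5p was higher in sperm with 2072 sperm and 61 testis reads (4.01, 3.64 to 4.40) and miR-191-5p lay near equality with 6816 and 2792 (0.21, 0.15 to 0.28).

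**Figure D4:**
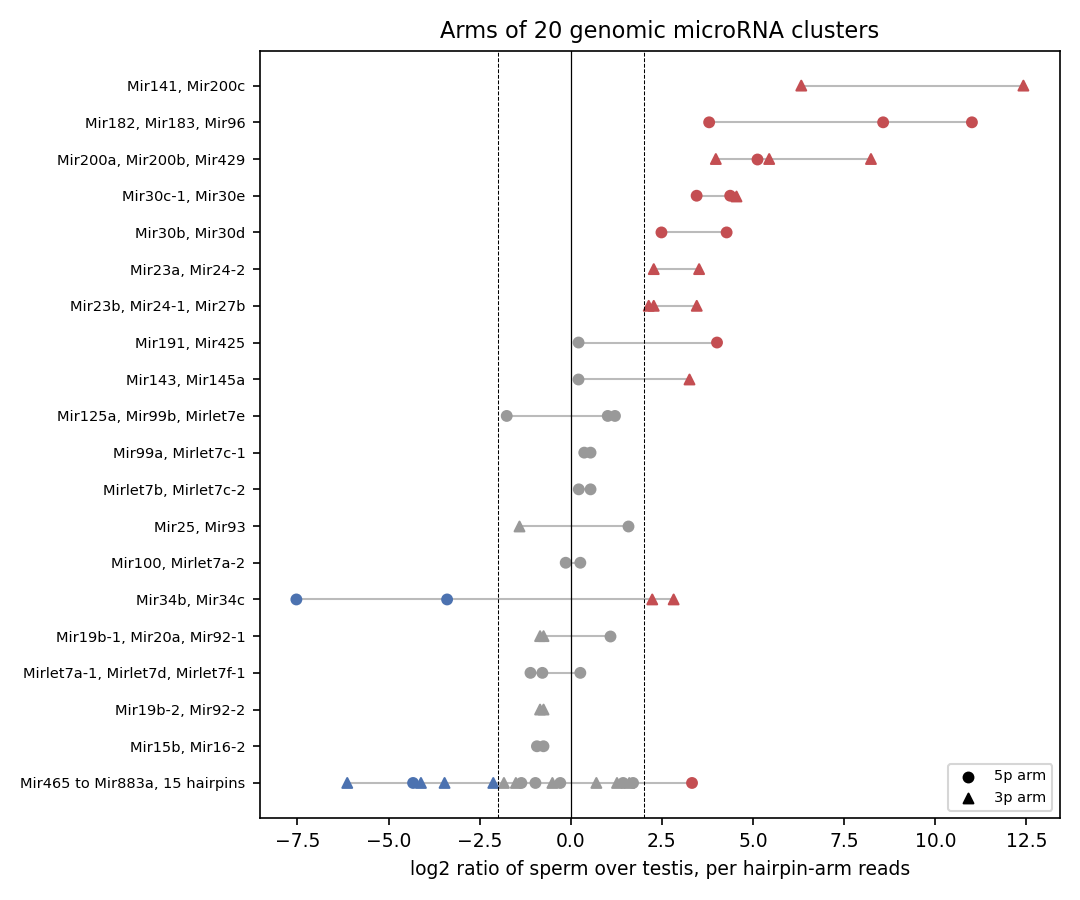
log2 ratio of sperm over testis for the kept arms of 20 clusters (hairpins no more than 10 kb apart on 1 strand), circles for 5p and triangles for 3p arms, with a grey line over the cluster's range and dashed lines at 4-fold. Red points passed 4-fold toward sperm and blue ones toward testis; the Mir34b and Mir34c arms and the 15 X-linked hairpins spread to both sides.

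Arms that share a seed were also compared. In 23 seeds with more than 1 kept arm, the 4 arms of GGCAGUG (miR-34 and miR-449) were all higher in testis and took 46.1% of testis and 4.27% of sperm reads. The 3 arms of AAUACUG (miR-200b, miR-200c and miR-429) were all higher in sperm, with 9.53% of sperm and 0.0112% of testis reads. Other seeds held unlike arms. miR-148a-3p, miR-148b-3p and miR-152-3p share CAGUGCA, and their log2 ratios were 6.07, 1.95 (1.47 to 2.46) and −0.50 (−0.72 to −0.27). miR-146a-5p and miR-146b-5p stood at 5.12 and 1.79, and miR-206-3p and miR-1a-3p at 5.64 and −1.39.

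The ends of the reads were compared in the 61 arms with 100 or more reads in both libraries, within the limit that reads outside 20 to 24 nt were not counted. Mean length was lower in sperm in 41 arms and higher in 20, with a median difference of −0.12 nt. In all hairpin-arm reads the peak was at 22 nt in sperm (45.9%) and at 23 nt in testis (48.4%), where the 23 nt miR-34c-5p weighs most. Reads of 20 nt were 8.01% of sperm and 1.91% of testis hairpin-arm reads. miR-143-3p weighs on the sperm value, since a 20 nt form held 93.3% of its 17706 sperm reads, beside 31601 sperm reads of 20 nt in all. The mean length was lower in sperm by 0.5 nt or more in 10 arms and higher by as much in 3. The latter were miR-465c-5p, the arm of miR-103 and miR-107, and that of miR-378a and miR-378c. The largest difference was that of miR-191-5p, with a mean of 21.7 nt in sperm and 23.2 nt in testis, followed by miR-130a-3p (20.8 and 21.9 nt), miR-192-5p (20.5 and 21.5 nt) and miR-26a-5p (20.9 and 21.9 nt).

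**Figure D5:**
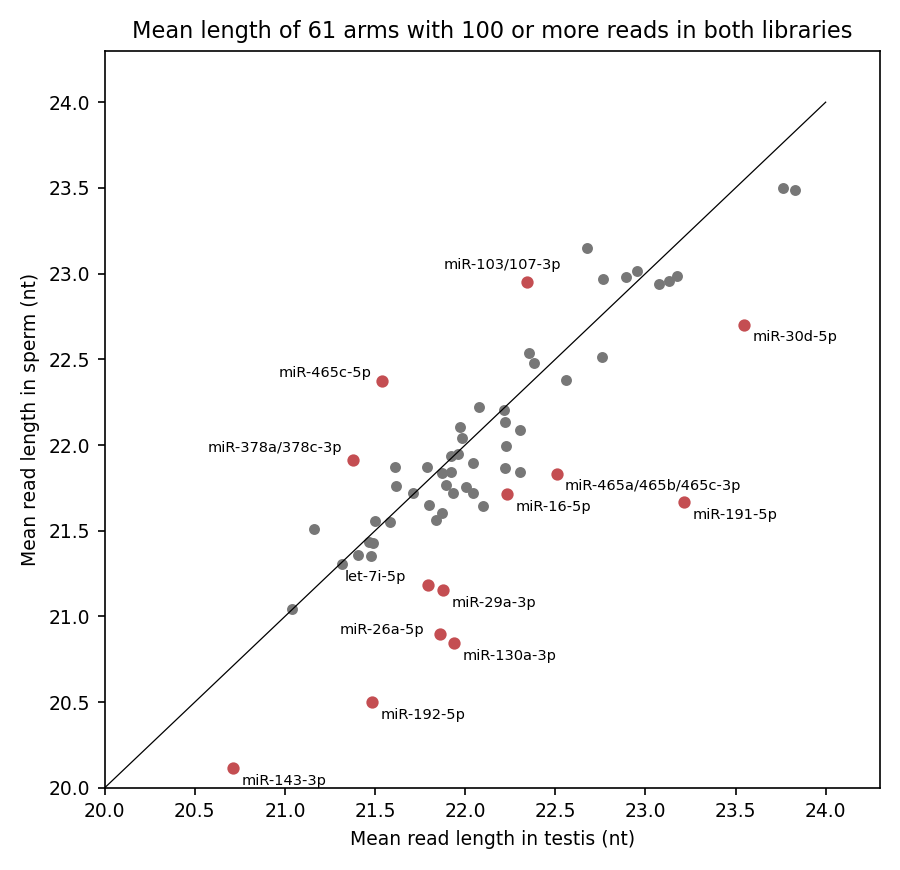
Mean length of the 20 to 24 nt reads of each arm in testis (x, nt) and sperm (y, nt) for the 61 arms with 100 or more reads in both libraries, 1 point per arm. The line marks equal length; the 13 red, named arms differ by 0.5 nt or more, 10 of them shorter in sperm.

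The most frequent sequence of an arm differed in 19 of the 61 arms. In 17 of these the start was the same, and the leading form was shorter in sperm in 13 and longer in 4. The forms below, from the deposited reads with T written as U, show the 4 arms with the largest loss of length at the 3′ end and the 2 arms in which the leading start differed. Capitals mark bases 2 to 8 of each form.
miR-191-5p in sperm: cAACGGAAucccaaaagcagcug
miR-191-5p in testis: cAACGGAAucccaaaagcagcugu
miR-130a-3p in sperm: cAGUGCAAuguuaaaagggc
miR-130a-3p in testis: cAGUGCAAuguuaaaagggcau
miR-192-5p in sperm: cUGACCUAugaauugacagc
miR-192-5p in testis: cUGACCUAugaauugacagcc
miR-26a-5p in sperm: uUCAAGUAauccaggauagg
miR-26a-5p in testis: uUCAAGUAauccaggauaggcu
miR-101a-3p in sperm: uACAGUACugugauaacugaag
miR-101a-3p in testis: gUACAGUAcugugauaacuga
miR-465a/465b/465c-3p in sperm: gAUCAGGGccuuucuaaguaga
miR-465a/465b/465c-3p in testis: uGAUCAGGgccuuucuaaguaga

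The first 4 arms kept the same seed. The 20 nt form of miR-26a-5p held 45.8% of its sperm reads, while the 22 nt form held 88.1% of its testis reads, and for miR-130a-3p the same 2 lengths held 51.9% and 93.9%. The leading testis forms of miR-101a-3p (34.3% of its reads) and of the miR-465 3p arm (53.8%) start 1 base earlier than the leading sperm forms (47.0% and 54.1%), which moves the seed by that base. The median share of an arm's reads at its leading start was 99.4% in sperm and 99.3% in testis. Of the 59 arms with the same leading start, 5 differed in that share by more than 10 points. They were miR-10a-5p (72.7% in sperm, 96.9% in testis), miR-29a-3p (81.2% and 96.8%), miR-743a-3p (67.0% and 78.7%), miR-101b-3p (86.8% and 61.3%) and miR-140-3p (90.1% and 69.9%). For miR-10a-5p, whether RNA of another organism adds to the sperm reads with another start was not tested.

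Of the 125 arms, 71 were 5p and 54 were 3p arms, and 84 started with U, among them 32 of the 46 sperm-higher and 15 of the 23 testis-higher arms. Of the 136 hairpins, 33 overlap an exon of a host gene on the same strand in the GENCODE annotation, 49 lie in an intron and 54 are intergenic. Arms of the X chromosome (20 kept) had a median of −0.74 with 1 higher in sperm and 6 in testis, and autosomal arms (102) a median of 1.21 with 45 and 17, and the 3 arms shared by X-linked and autosomal hairpins (let-7f-5p, miR-19b-3p and miR-92a-3p) are in neither group. Both medians move by the same shift with another denominator. The arms nearest the minimum of 100 reads were miR-471-3p (3 sperm and 100 testis reads) and miR-221-3p (101 and 12, a log2 ratio of 2.00 that falls just short of 4-fold) inside it, and miR-15a-5p (53 and 97) and miR-201-5p (0 and 96) outside it.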

How the data were processed

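The files hold distinct small RNA sequences with read counts, made by the authors; the counts are deposited raw, per the file headers and the whole-number values. The submitters' processing notes name the mouse build mm9; aligner, adapter trimming or size selection were not given in the sources used here. Coordinates are those of GENCODE M21 on GRCm38 and were not converted from mm9. The libraries held 15690722 (sperm), 23783785 (testis) and 15876066 (uterus) reads; the 1 line without a sequence in each of the sperm and testis files was left out.

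Reads of 20 to 24 nt were matched in full, sense strand, to hairpins with a symbol starting Mir, and assigned to an arm by the read's midpoint. Arms of different hairpins that shared at least 50% of their reads were merged, and reads that matched several unmerged arms (1 in sperm, 4 in testis) were left out. Arms with 100 or more reads in either library were scaled to all hairpin-arm reads. An arm was called at 4-fold. A count of 0 was set to 3 reads. Ratios have exact conditional binomial and shares exact Clopper-Pearson 95% intervals. No test was made with 1 library per group.

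Named arms follow a rule: the 10 leading arms of each library, the 10 largest ratios in each direction, up to 4 arms per list, arm switches, clusters with 3 or more hairpins and shifted starts. Other arms named, such as miR-425-5p, were chosen after their values were seen. Members and lists were chosen with earlier results of these data known. Alternatives were other denominators, TMM (edgeR 4.0.16), DESeq2 1.42.0 size factors (both under R 4.3.3), count minimums, lengths, folds, distinct sequences, single reads, shared reads and other annotated RNA. Counting reads that share the first 19 bases was added after the data were seen. Matching and ratios were tested on simulated data. Python 3.11.15, numpy 2.4.6, pandas 2.3.3, scipy 1.17.1 and matplotlib 3.10.9 were used.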

Additional observations from a re-analysis of the deposited data

How the results depend on the processing

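The 46 arms higher in sperm became 28 with a minimum of 500 reads and 6 with distinct sequences in place of reads, and lay between 37 and 66 under the other settings. The 23 arms higher in testis became 12 with all reads of the library as the denominator, 35 without the most abundant arm of either library, 47 with a minimum of 20 reads, 11 with a minimum of 500 reads, 36 with a 2-fold limit and 5 with distinct sequences. With TMM factors the split was 42 and 28 and with DESeq2 size factors 43 and 28. Counting distinct sequences turned miR-10b-5p to −0.077, miR-142a-5p to −0.17, miR-146a-5p to −0.044 and with it the leukocyte median to −0.044. With this setting each library's hairpin reads shrink to 1834 sequences in sperm and 1423 in testis. The striated muscle median turned to −1.39 with a minimum of 500 reads, where miR-1a-3p alone was left. The 2 hairpins with another majority arm remained 2 in number with reads of 18 to 26 or 21 to 23 nt, without single reads and with reads sharing the first 19 bases, and the 20 clusters became 21 with gaps of up to 50 kb. No paired analysis was possible because each group is 1 library. Depth limits the testis side most: arms with 1 to 6 testis reads, such as miR-200c-3p and miR-182-5p, have intervals of 2 log2 units or more.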

Other observations

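Reads that match a hairpin arm in full except for 1 or 2 added bases at the 3′ end were counted apart from the members. Of full-match and tailed reads together, they made up 13.0% (12.9 to 13.1%) in the sperm library, 11.4% (11.3 to 11.5%) in the testis library and 14.8% in that of uterus. In the same order of libraries, a single added U was found on 5.48%, 4.07% and 2.66%, a single added A on 4.31%, 4.97% and 8.21%, and a single added C on 0.495%, 0.109% and 0.105%. By arm the order differed from these totals: of 61 arms with 100 or more full-match reads in both libraries, the tailed share was higher in sperm in 26 and lower in 35, and the share with 1 or 2 added U was higher in sperm in 19. The median tailed share of an arm was 11.6% in sperm and 13.6% in testis. miR-26a-5p, whose full-match reads were shorter in sperm, had 1 or 2 added U on 4.53% of its sperm reads and 34.1% of its testis reads. miR-34c-5p had a tailed share of 0.740% in sperm and 7.03% in testis. Among the 61 arms miR-1a-3p differed most, with tails on 46.0% of its sperm reads against 4.52% of its testis reads. Few of its sperm reads carried 1 or 2 added A (1.16%) or U (0.0306%). An added base that equals the next base of the genome beyond the hairpin, or a sequencing error, is counted here as a tail. Whether RNA of another organism adds to the tailed reads of sperm, those of miR-1a-3p among them, was not tested.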
